A study of Homo sapiens with 6 samples.

Results

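The miR-34 family and miR-449a are mature miRNAs best known for restraining the cell cycle, and their levels and their behaviour in an m7G immunoprecipitation were examined in Caco-2 cells. The members were taken by name from the count table, which lists 2588 mature miRNAs, and all 7 were present: hsa-miR-34a-5p, hsa-miR-34a-3p, hsa-miR-34b-5p, hsa-miR-34b-3p, hsa-miR-34c-5p, hsa-miR-34c-3p and hsa-miR-449a. Caco-2 is an established colorectal adenocarcinoma line, and it was grown without any treatment. Small RNA libraries were made from 3 input samples and from 3 samples of heat-denatured RNA from the same line, immunoprecipitated with an anti-m7G antibody (m7G-RIP), where m7G is guanosine methylated at its N7 position. All 6 libraries come from the same unmodified line, no other cells and no control immunoglobulin library were analysed here, and nothing in the labels says whether replicates were separate cultures, so that p-values measure the spread between these libraries, which may be technical.

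A miRNA is cut from a hairpin precursor by Drosha and Dicer, and either strand of the duplex, the 5p or the 3p arm, can be loaded into an Argonaute protein. The seed, bases 2 to 8 of the loaded strand, pairs with target mRNAs. The miRNAs made from the MIR34A gene and from the shared MIR34B and MIR34C gene repress messages for cell cycle and survival proteins such as CDK6, MET and BCL2. The miR-449 cluster carries related seeds, is activated by E2F1, and together with miR-34b and miR-34c is best known for the formation of motile cilia.

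Sequences are shown because the seeds define which members can share targets and because the antibody recognises modified guanosine. RefSeq gave a mature sequence for 6 of the 7 members, and for hsa-miR-34c-5p none is printed. They are written 5′ to 3′ with the seed in capitals, and the last 2 belong to other miRNAs of the miR-449 cluster.
hsa-miR-34a-5p: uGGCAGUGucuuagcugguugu
hsa-miR-449a: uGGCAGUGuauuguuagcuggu
hsa-miR-34b-5p: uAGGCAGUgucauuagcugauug
hsa-miR-34a-3p: cAAUCAGCaaguauacugcccu
hsa-miR-34b-3p: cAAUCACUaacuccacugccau
hsa-miR-34c-3p: aAUCACUAaccacacggccagg
hsa-miR-449b-5p: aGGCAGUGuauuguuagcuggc
hsa-miR-449c-5p: uAGGCAGUguauugcuagcggcugu

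hsa-miR-34a-5p, hsa-miR-449a and hsa-miR-449b-5p share the seed GGCAGUG, while hsa-miR-34b-5p and hsa-miR-449c-5p carry AGGCAGU, the same letters moved by 1 base. The seed of hsa-miR-34c-5p was not assessed. The 3p arms have seeds of their own. hsa-miR-34b-3p and hsa-miR-34c-3p are identical at 17 of 21 overlapping bases when shifted by 1 base, and hsa-miR-34a-5p and hsa-miR-449a at 15 of 22. Each of the 6 mature sequences comes from 1 locus in the RefSeq table, so none of them could be counted at several loci.

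In GRCh38 the MIR34A hairpin occupies chr1:9151668-9151777 on the minus strand, within an exon of the long noncoding RNA MIR34AHG. The MIR34B and MIR34C hairpins occupy chr11:111512938-111513021 and chr11:111513439-111513515 on the plus strand. They are 417 bases apart, within exons of 1 long noncoding RNA, MIR34BHG, and opposite intron sequence of the protein-coding gene BTG4. The MIR449A hairpin occupies chr5:55170532-55170622 on the minus strand, in an intron of the protein-coding gene CDC20B. The hairpins of MIR34A and MIR34B, whose arms are compared below, are written with both mature arms in capitals.
MIR34A: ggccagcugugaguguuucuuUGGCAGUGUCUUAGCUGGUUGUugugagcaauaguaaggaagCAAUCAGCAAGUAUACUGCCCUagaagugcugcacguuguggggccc
MIR34B: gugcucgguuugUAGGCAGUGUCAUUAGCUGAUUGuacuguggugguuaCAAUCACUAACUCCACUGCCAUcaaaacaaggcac

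The miRNA counts summed to between 16466178 and 19628046 in the input libraries and to between 1654102 and 3105129 in m7G-RIP, so rare members were measured less precisely after immunoprecipitation. Levels are given as CPM, read counts relative to the library total after TMM scaling, which corrects for differences in composition. A read covers a whole mature miRNA, so no scaling by length applies. A count of 3, taken as the floor, was worth 0.235 to 0.262 CPM in an input library and 0.675 to 1.1 CPM in an m7G-RIP library, and such limits cover counting error only. All 8 miRNAs chosen as intestinal and epithelial markers were detected in the input, where they held between 7.91% and 8.1% of the counts. The 12 chosen for blood, muscle, stroma, liver and neurons held between 0.258% and 0.264%, but not all of them were rare. The neuronal hsa-miR-9-5p had a mean of 2922 CPM and the muscle hsa-miR-1-3p 643.9 CPM in the input. Both lay above the lowest epithelial marker, hsa-miR-141-3p, at 260.1 CPM. The next highest of the 12 was hsa-miR-143-3p at 174.4 CPM. A count of 0 can come from the counting itself: hsa-miR-423-5p and hsa-miR-423-3p, whose loci overlap other mature miRNAs in RefSeq, were listed at 0 in every library. For the 6 members with a RefSeq locus no other mature miRNA overlaps it.

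In the input the family was present at modest levels and was almost entirely hsa-miR-34a-5p. The 7 members together had 2263, 2336 and 2336 counts in input replicates 1, 2 and 3, which was 0.0132% ± 0.00119 (SD, n = 3) of all miRNA counts. Of these, 92.4% ± 1.4 (SD, n = 3) belonged to hsa-miR-34a-5p, with exact binomial 95% intervals that lay between 89.5% and 94.4% over the 3 libraries.

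hsa-miR-34a-5p, the arm best known for the repression of CDK6 and MET, had 2100, 2120 and 2183 counts in the input, or 179, 166 and 190.4 CPM. It ranked 157th, 161st and 149th among the listed miRNAs, of which between 1418 and 1447 had a count in an input library. hsa-miR-34c-5p, its counterpart from the chromosome 11 gene, had 102, 158 and 99 counts, or 8.69, 12.4 and 8.64 CPM, and ranked between 331st and 370th. The level of hsa-miR-34a-5p was thus about 4.18 ± 0.39 (SD, n = 3) higher on the log2 scale within the same library.

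The remaining members had at most 27 counts in an input library. hsa-miR-34b-3p had 20, 22 and 27 input counts (1.93 ± 0.371 CPM, SD, n = 3), and hsa-miR-449a, the cilia-linked member with the same seed as hsa-miR-34a-5p, had 23, 21 and 14 (1.61 ± 0.371 CPM, SD, n = 3). The ranges of these 2 members overlapped, so their order was not resolved. hsa-miR-34a-3p had 6, 11 and 10 counts (0.748 ± 0.205 CPM, SD, n = 3) and hsa-miR-34c-3p 12, 4 and 3 (0.533 ± 0.425 CPM, SD, n = 3), and these also overlapped. hsa-miR-34b-5p had 0 counts in all 6 libraries, which allows up to 0.0834 CPM over the pooled input. The order of the input levels was therefore hsa-miR-34a-5p, then hsa-miR-34c-5p, then hsa-miR-34b-3p and hsa-miR-449a, then hsa-miR-34a-3p and hsa-miR-34c-3p, with no overlap of the library values between these 4 steps. The last step is narrow: hsa-miR-449a had 14 counts (1.22 CPM) in input replicate 3 and hsa-miR-34c-3p 12 (1.02 CPM) in input replicate 1. Counting error could close that gap.

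**Figure D1:**
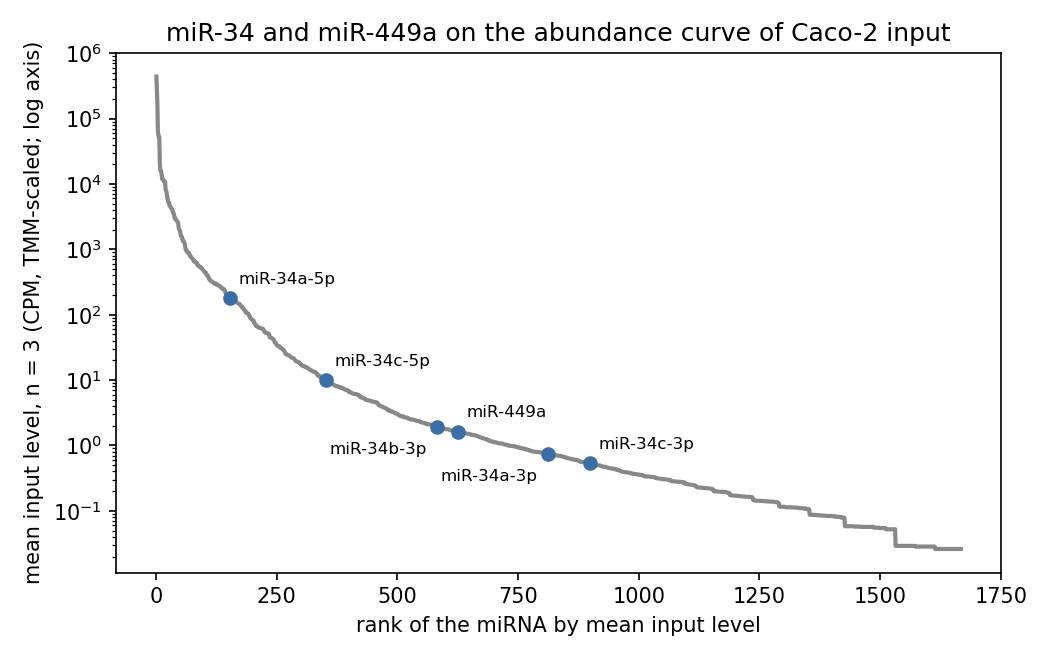
Mean input level in CPM on a log axis (vertical) against the rank of each miRNA by that level (horizontal), with the grey curve showing all miRNAs detected in the input and the points the 6 members with input counts. hsa-miR-34a-5p stands at 178.5 CPM on the upper part of the curve, and the other members lie at or below 9.9 CPM.

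Levels by seed followed the same pattern. The 3 miRNAs with a RefSeq sequence and the seed GGCAGUG, hsa-miR-34a-5p, hsa-miR-449a and hsa-miR-449b-5p, summed to 2126, 2151 and 2198 input counts, of which hsa-miR-34a-5p made up between 98.6% and 99.3%. hsa-miR-34c-5p, with 102, 158 and 99 input counts, was not placed by seed because its mature ends were not given, and it is in none of these sums. The 5p side of the MIR34C hairpin holds both GGCAGUG and the shifted AGGCAGU. If hsa-miR-34c-5p carries GGCAGUG, the share of hsa-miR-34a-5p in that seed is lower than stated. In the family with the shifted seed AGGCAGU, hsa-miR-449c-5p had 131, 182 and 151 input counts, and hsa-miR-34b-5p and the third listed miRNA, hsa-miR-2682-5p, together had at most 1 in a library. hsa-miR-449c-5p, which is no member, was therefore the most abundant product of the miR-449 cluster, at 12.9 ± 1.57 CPM (SD, n = 3) against 1.61 CPM for hsa-miR-449a. hsa-miR-449b-5p had 3, 10 and 1 counts, hsa-miR-449c-3p had 1, 0 and 2, and hsa-miR-449b-3p had none.

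The arms of each hairpin were unequally represented in the input, and not on the same side. The MIR34A hairpin gave 5p reads in 99.7%, 99.5% and 99.5% of its counts, with exact 95% intervals that lay between 99.1% and 99.9%. The MIR34C hairpin gave 5p reads in 89.5%, 97.5% and 97.1% of its counts. The MIR34B hairpin gave only 3p reads, 69 over the 3 input libraries, and the absence of the 5p arm among 20, 22 and 27 reads allows a 5p share of up to 15%, 13.6% and 11.1%. The neighbouring hairpins MIR34B and MIR34C were thus represented by opposite arms.

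In the m7G-RIP libraries the make-up of the family differed. The 7 members together had 57, 89 and 51 counts, 0.0026% ± 0.000658 (SD, n = 3) of all miRNA counts. hsa-miR-34a-5p took 41.7% ± 3.72 (SD, n = 3) of them, and hsa-miR-34b-3p took 49.6% ± 0.896 (SD, n = 3), against 0.995% ± 0.146 (SD, n = 3) in the input. The exact 95% intervals for hsa-miR-34b-3p lay between 34.8% and 63.4% in m7G-RIP and between 0.541% and 1.68% in the input, so that these shares did not overlap between the groups in any library.

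**Figure D2:**
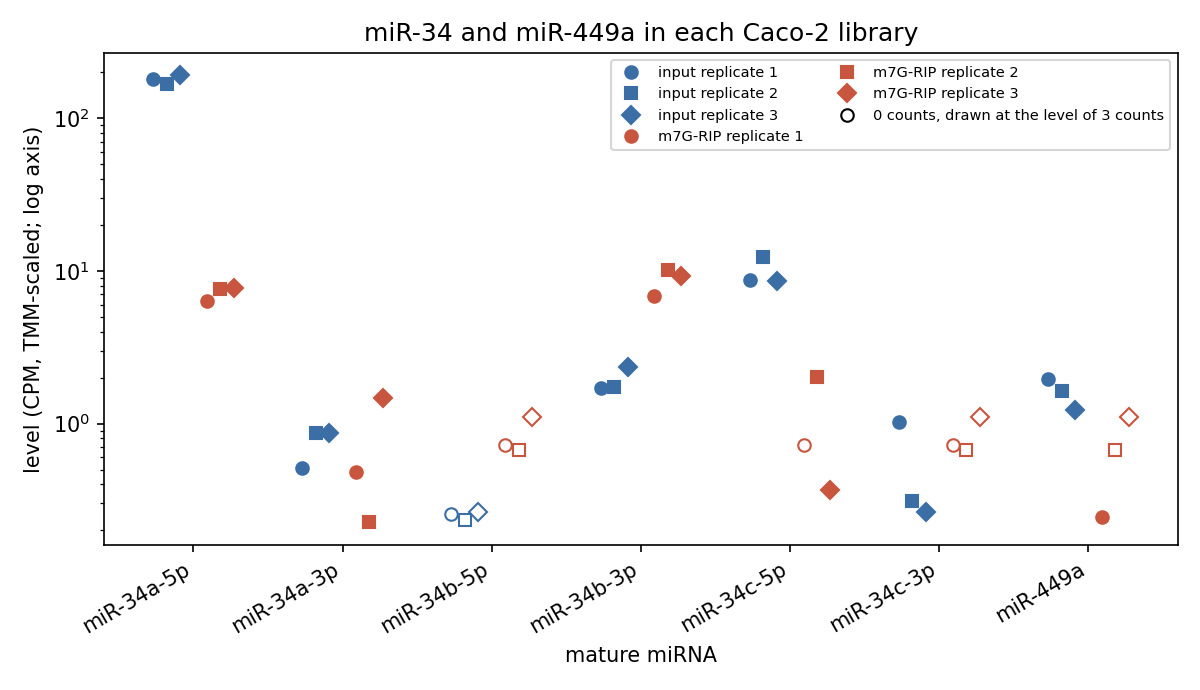
Level of each member in CPM on a log axis (vertical) for the 7 members (horizontal), with blue symbols for input and red for m7G-RIP, 1 symbol per library; hollow symbols stand for 0 counts and are drawn at the level of 3 counts. hsa-miR-34a-5p and hsa-miR-34c-5p are lower in the red symbols, and hsa-miR-34b-3p is higher, at 6.8, 10.1 and 9.21 CPM.

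Of the 7 members, 3 passed the filter on low counts, and these 3 were tested among 800 miRNAs with edgeR's quasi-likelihood test on all 6 libraries, with Benjamini-Hochberg adjustment over all 800. hsa-miR-34a-5p and hsa-miR-34c-5p were depleted in m7G-RIP and hsa-miR-34b-3p was enriched. Among all miRNAs tested, 38.1% were called depleted and 40.1% enriched at an adjusted p-value under 0.05, so calls in either direction were common and 3 calls among 3 members are not a result about the family. The median log2 enrichment of all miRNAs tested was 0.16. The filter asked for about 1.02 CPM of the unscaled library total in 3 libraries. hsa-miR-34a-5p and hsa-miR-34b-3p met this in both groups, whereas hsa-miR-34c-5p met it in all 3 input libraries but in 1 m7G-RIP library, so its passing depended on its higher level in the input.

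hsa-miR-34a-5p fell from 2100, 2120 and 2183 counts in the input to 26, 34 and 21 in m7G-RIP. In CPM the m7G-RIP values were 6.31, 7.65 and 7.74, all far below the lowest input value of 166. The log2 enrichment, m7G-RIP over input, was -4.63 (SE, the standard error, 0.21, quasi-likelihood test in edgeR with adjusted p = 3.39e-10), 24.7-fold lower. It was negative in 3 of 3 same-numbered pairs, and 42 of the 800 miRNAs tested had a lower value. Leaving out any single library gave values from -4.84 to -4.5. Its size depends on the scaling, with -3.54 by total counts and -4.98 with DESeq2, and the call stood in both.

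hsa-miR-34c-5p fell from 102, 158 and 99 input counts to 0, 9 and 1 in m7G-RIP. The groups did not overlap, but the m7G-RIP replicates differed widely, at 0, 2.03 and 0.368 CPM against 8.64 CPM or more in the input. The log2 enrichment was -3.49 (SE 0.64, quasi-likelihood test in edgeR with adjusted p = 0.000258). Its size rests on the m7G-RIP library chosen: it was -6.08 without m7G-RIP replicate 2, the library with 9 counts, and -2.88 without m7G-RIP replicate 1, the library with none, and the call stood in both cases with adjusted p-values of 4.22e-05 and 0.000111 in the same edgeR test. Counting error alone limits this value, since 10 reads in all remained after immunoprecipitation, and other scalings gave -3.88 to -2.42. hsa-miR-34c-5p passed the filter only through the input, where it was higher. Its p-values therefore describe these counts and are no support for a depletion.

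hsa-miR-34b-3p, processed from the same primary transcript as hsa-miR-34c-5p, rose. It had 20, 22 and 27 counts in the input and 28, 45 and 25 in m7G-RIP, although the m7G-RIP libraries were several times smaller. In CPM it went from 1.7, 1.72 and 2.35 to 6.8, 10.1 and 9.21, with no overlap. The log2 enrichment was 2.17 (SE 0.39, quasi-likelihood test in edgeR with adjusted p = 0.000201), 4.49-fold higher, and it was positive in 3 of 3 same-numbered pairs. A higher value was found for 185 of the 800 miRNAs tested. Leaving out any single library gave values from 1.88 to 2.41, and other scalings of the libraries gave 1.83 to 3.27.

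**Figure D3:**
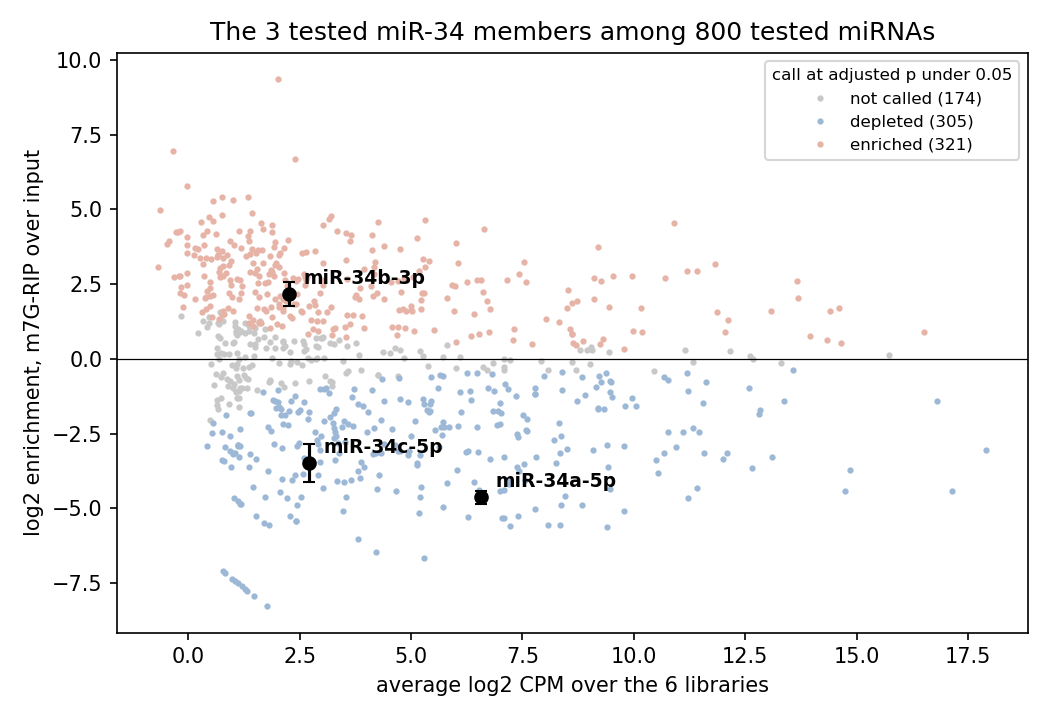
Log2 enrichment of m7G-RIP over input (vertical) against average log2 CPM over the 6 libraries (horizontal) for the 800 tested miRNAs, coloured by their call, with the 3 tested members in black and bars for their standard errors. hsa-miR-34b-3p at 2.17 lies among the enriched miRNAs, and hsa-miR-34c-5p at -3.49 and hsa-miR-34a-5p at -4.63 among the depleted ones.

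The members that were not tested could be followed only by their counts. hsa-miR-449a went from 23, 21 and 14 counts to 1, 0 and 0, where an equal level would have given about 18.2 reads over the 3 m7G-RIP libraries. Its pooled ratio of m7G-RIP to input was 0.055, with an exact 95% interval for counting error from 0.00137 to 0.319, and 0.116 on the scale of total counts (0.00289 to 0.672). hsa-miR-34a-3p went from 6, 11 and 10 counts to 2, 1 and 4, a pooled ratio of 0.827 with an interval from 0.304 to 1.95, and 1.74 (0.641 to 4.1) on the scale of total counts, so that neither a fall nor a rise was detectable at this depth. hsa-miR-34c-3p went from 12, 4 and 3 counts to 0, 0 and 0. The 0 counts allow up to 0.266 CPM over the pooled m7G-RIP libraries against 0.528 CPM in the pooled input, and on the scale of total counts up to 0.382 CPM against 0.36 CPM, so on that scale the difference lies under the limit of detection. When edgeR's test was run with no filter, hsa-miR-449a (adjusted p = 0.000771) and hsa-miR-34c-3p (adjusted p = 0.0304) were called depleted and hsa-miR-34a-3p (adjusted p = 0.664) was not. In that run 423 of 1744 miRNAs were called depleted. The 2 called members had nearly all their counts in the input, so these calls only describe the counts.

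Ratios of members within a library do not depend on how the libraries are scaled, and they were used to compare members with each other. For the 3 pairs of tested members, ratios of counts after adding 0.5 were compared between 3 m7G-RIP and 3 input libraries with exact permutation tests, two-sided, whose smallest possible p is 0.1. The log2 ratio of hsa-miR-34a-5p to hsa-miR-34b-3p was 6.68, 6.56 and 6.31 in the input and -0.1, -0.4 and -0.25 in m7G-RIP. The groups lay far apart, by -6.77, with SDs of 0.19 and 0.15 (exact permutation p = 0.1, adjusted p = 0.15 over the 3 pairs).

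The log2 ratio of hsa-miR-34b-3p to hsa-miR-34c-5p, the products of neighbouring hairpins, was -2.32, -2.82 and -1.86 in the input and 5.83, 2.26 and 4.09 in m7G-RIP. It changed sign between the groups in every library, a difference of 6.39 (exact permutation p = 0.1, adjusted p = 0.15). The ratio of the 5p arms hsa-miR-34a-5p and hsa-miR-34c-5p overlapped between the groups, with 4.36, 3.74 and 4.46 in the input against 5.73, 1.86 and 3.84 in m7G-RIP. Their difference was -0.37 (exact permutation p = 0.8, adjusted p = 0.8). It was -0.84 with 1 added to each count and 0.60 without m7G-RIP replicate 2. These counts therefore did not resolve whether both 5p arms were depleted to the same degree.

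The arms of miR-34a also differed in their ratio. The 5p share of the MIR34A hairpin was 92.9%, 97.1% and 84% in m7G-RIP, on 28, 35 and 25 reads, with exact 95% intervals from 76.5% to 99.1%, from 85.1% to 99.9% and from 63.9% to 95.5%. The log2 ratio of 5p to 3p was 8.34, 7.53 and 7.7 in the input and 3.41, 4.52 and 2.26 in m7G-RIP. The groups did not overlap and differed by -4.46 (exact permutation p = 0.1, the smallest this design allows), and by -5.02 to -3.89 when any single library was omitted. The m7G-RIP ratios rest on 7 reads of hsa-miR-34a-3p. Only the point values are apart in every library, since the interval of m7G-RIP replicate 2 includes the input shares of 99.5% to 99.7%. For MIR34B all 98 m7G-RIP reads were again 3p, and for MIR34C the 10 m7G-RIP reads were all 5p.

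**Figure D4:**
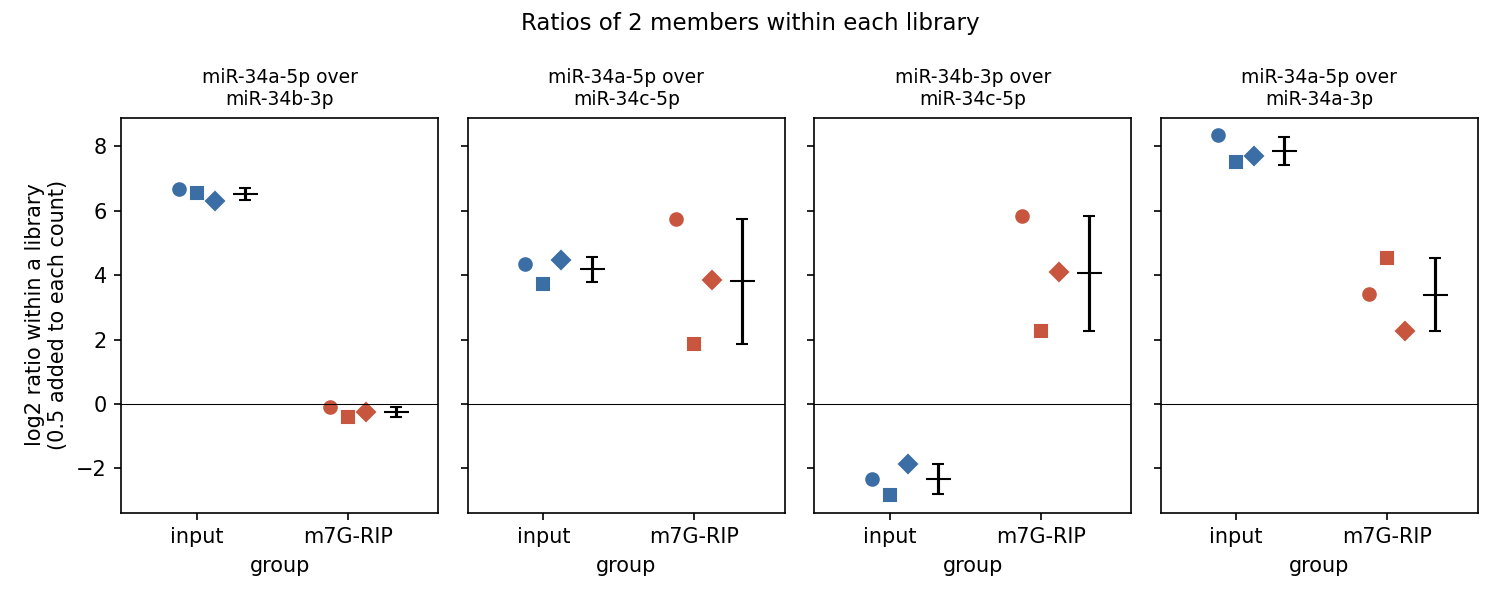
Log2 ratio of 2 members within each library (vertical, 0.5 added to each count) for input in blue and m7G-RIP in red (horizontal), 1 panel per ratio, with black marks for the mean and SD of 3 libraries. The ratio of hsa-miR-34a-5p to hsa-miR-34b-3p drops from about 6.52 to -0.25, and that of hsa-miR-34a-5p to hsa-miR-34c-5p overlaps between the groups.

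Guanosine content is described for the tested members with a sequence, hsa-miR-34b-3p and hsa-miR-34a-5p. hsa-miR-34b-3p holds 1 guanosine in 22 bases (4.55%) and was enriched, while hsa-miR-34a-5p holds 8 in 22 (36.4%) and was depleted. Across the 714 tested miRNAs with a RefSeq mature sequence, Spearman's rho between guanosine share and log2 enrichment was 0.497, as a description over miRNAs that share the same 6 libraries. The median guanosine share was 40.9% for the 290 enriched miRNAs among them and 22.7% for the 268 depleted ones, so these 2 members lay on the opposite side of that trend.

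Among all these miRNAs, 14, hsa-miR-34b-3p included, have a guanosine share no higher than it. Of these, 6 were enriched, 4 depleted and 4 not called, where 40.1% of all tested miRNAs were enriched and 38.1% depleted. None of the others had a higher log2 enrichment than hsa-miR-34b-3p. At a share of 8.7% a higher value already occurred, 2.87 for hsa-miR-6732-3p, although others at 8.7% were lower, such as hsa-miR-30c-5p at -2.44. Higher values also occurred at 9.52%, such as 3.70 for hsa-miR-4667-3p and 3.63 for hsa-miR-6729-3p. Others at 9.52% were lower, such as hsa-miR-6505-3p at -0.65. At the other end, 235 have a share at least as high as hsa-miR-34a-5p, and 2 of them had a lower log2 enrichment. hsa-miR-449a has the same share as hsa-miR-34a-5p, and hsa-miR-34a-3p and hsa-miR-34c-3p, which were too rare for the filter, hold 13.6% and 18.2%. In the hairpins, 31.8% of MIR34A, 23.8% of MIR34B, 20.8% of MIR34C and 27.5% of MIR449A bases are guanosine, against a median of 27% over 1560 hairpins. None of these 4 hairpins holds 4 runs of at least 2 guanosines separated by 1 to 7 bases on its own strand, a pattern found in 29.2% of all hairpins.

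**Figure D5:**
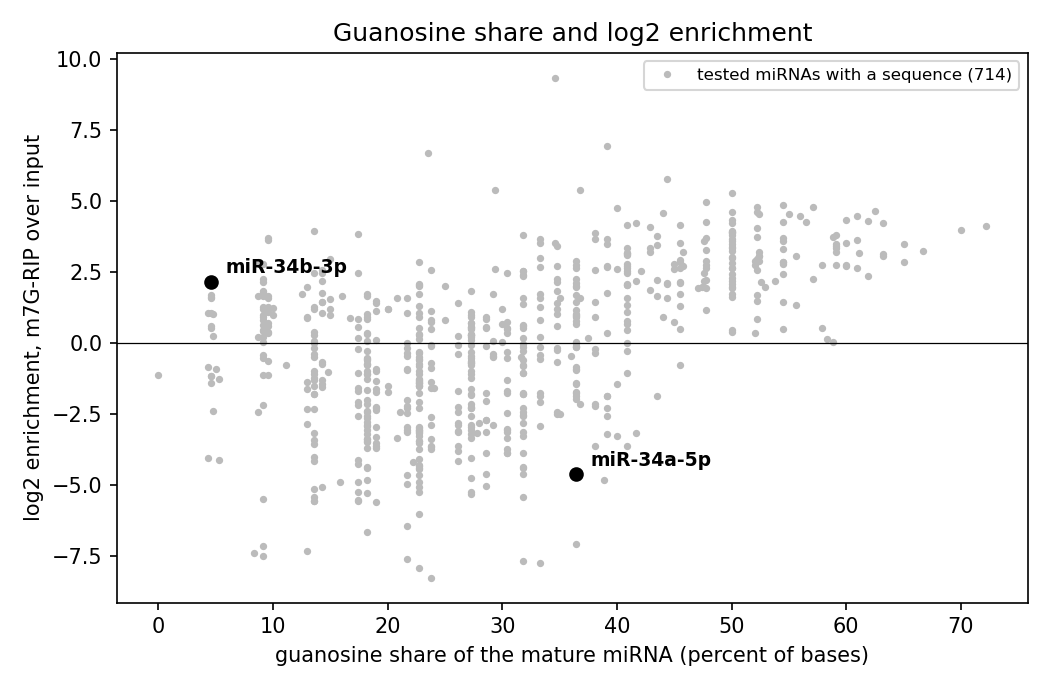
Log2 enrichment of m7G-RIP over input (vertical) against the guanosine share of the mature miRNA in percent (horizontal) for 714 tested miRNAs in grey, with 2 members in black. hsa-miR-34b-3p lies at 4.55% and 2.17, the highest at its guanosine share, and hsa-miR-34a-5p at 36.4% and -4.63, near the lower edge of the cloud.

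The miRNAs whose levels over the 6 libraries were most like those of hsa-miR-34a-5p were found by the root mean square difference of log2 CPM profiles, each centred on its own mean. They were hsa-miR-30b-5p (0.122), hsa-miR-769-5p (0.207), hsa-miR-200a-3p (0.223), hsa-miR-660-5p (0.232) and hsa-miR-21-5p (0.245). Their log2 enrichments lay between -4.66 and -4.33, while their mean input levels ran from 240.6 CPM for hsa-miR-769-5p to 276600 CPM for hsa-miR-21-5p. Close enrichments at unequal levels follow from this choice, because centring removes the level from the comparison.

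In the miR-449 cluster, hsa-miR-449c-5p was the only other miRNA tested. It had 51, 6 and 41 counts in m7G-RIP, where replicate 2 stood far below the other libraries, and a log2 enrichment of -0.47 (SE 0.53, quasi-likelihood test in edgeR with adjusted p = 0.421). Of the 8 intestinal and epithelial markers, all were tested, 7 were depleted and 1, hsa-miR-200c-3p at 0.55 (SE 0.14), was enriched, with a median log2 enrichment of -3.49. Among all 800 miRNAs tested, 38.1% were depleted and 40.1% enriched. The intestinal hsa-miR-192-5p alone had 54860 ± 4239 CPM (SD, n = 3) in the input, far above hsa-miR-34a-5p. Of the 12 markers of other cell types, 8 were tested and 6 were depleted, with a median of -2.70. Some of them passed the filter only through the input, such as hsa-miR-145-5p with 43, 47 and 53 input counts and 1, 0 and 0 in m7G-RIP. These counts of calls are therefore not read as a trait of cell type markers.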

How the data were processed

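Small RNA libraries of 3 input and 3 m7G-RIP samples of Caco-2 cells were analysed. Per the study's methods, RNA was decapped and heat-denatured before the antibody step, bound RNA was eluted with 7-methyl-GTP, and the input was an aliquot of the RNA. Unnormalised read counts for each mature miRNA were deposited: the authors trimmed adaptors with Trimmomatic, mapped to GRCh38 with STAR and counted with featureCounts on miRBase annotation, while the submitters' processing notes name Bowtie2 in place of STAR. How reads with several loci were counted is not given in the sources used here; of 73 multi-locus miRNAs with at least 20 counts, 32 had only multiples of their number of loci, as when each locus counts a read, which does not touch the single-locus sequences printed.

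Counts were tested with edgeR 4.0.16 (filterByExpr, minimum count 10 and total 15; TMM; quasi-likelihood test; Benjamini-Hochberg) in R 4.3.3, and the script was checked on simulated data. Other scalings and filters, DESeq2 1.42.0, a replicate block and leaving out each library were the alternatives. The standard error is the absolute log2 enrichment over the square root of F. Exact intervals are Clopper-Pearson at 95%, and exact permutation tests used scipy 1.17.1. Sequences come from RefSeq (GRCh38.p14) and gene context from GENCODE release 44. All 7 members were named, with the 5 tested miRNAs of most similar profile to hsa-miR-34a-5p, the other miR-449 miRNAs and 2 lists of cell type markers; other context lists are not reported here. The members and lists were chosen with earlier results of these data known.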

Additional observations from a re-analysis of the deposited data

How the results depend on the processing

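The log2 enrichments of the 3 tested members were recomputed 38 times under other settings, and none changed sign or lost its call. The number of members called depleted was 2 as reported, where 305 of 800 miRNAs were depleted. It was 4 with no filter on low counts, where 423 of 1744 miRNAs were depleted and hsa-miR-449a and hsa-miR-34c-3p were also tested. Those 2 members had 1 and 0 reads in all of m7G-RIP, so their calls rest on input counts. It was 1 when every library needed at least 10 counts, where 175 of 426 miRNAs were depleted and hsa-miR-34c-5p was no longer tested. The number enriched stayed at 1. Over all miRNAs, 321 were enriched and 305 depleted as reported. The stricter minimum left 426 miRNAs tested, 182 enriched and 175 depleted. With total counts 198 were depleted, where the median log2 enrichment moved by 1.09 and 69.1% of the calls were enriched, against 51.3% as reported, 64.8% when scaled by the upper quartile and 45.1% by the size factors of DESeq2. With no filter 320 of the 1744 miRNAs tested were enriched and 423 depleted. With total counts hsa-miR-34a-5p was at -3.54 and hsa-miR-34c-5p at -2.42, and with DESeq2's Wald test at -4.98 and -3.88.

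When single libraries were left out, 268 to 341 miRNAs were enriched and 235 to 377 depleted, and 1 and 2 to 3 members. The ratio of hsa-miR-34a-5p to hsa-miR-34b-3p differed by -6.87 to -6.68, that of hsa-miR-34b-3p to hsa-miR-34c-5p by 5.5 to 7.29, and that of hsa-miR-34a-5p to hsa-miR-34c-5p by -1.33 to 0.6, with the reversal to 0.6 without m7G-RIP replicate 2. The labels link same-numbered libraries only by their number. Correlations of their deviations were -0.03, -0.039 and 0.071, which do not settle whether they came from the same RNA. With the replicate number as a block, 296 miRNAs were enriched and 295 depleted, and hsa-miR-34a-5p, hsa-miR-34b-3p and hsa-miR-34c-5p had -4.62, 2.17 and -3.77 with 1 member enriched and 2 depleted; no call of a member changed. The depth of m7G-RIP limits every statement on members under about 1 CPM.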
